A study of Mus musculus with 9 samples.

Results

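The collagen genes of HC11 mammary epithelial cells were compared between strains that expressed 3 forms of Mkl1, a transcriptional coactivator of serum response factor (SRF). A gene was counted as a collagen when a probeset named it alone and its symbol read Col, 1 or 2 digits, a and a digit. This gave 44 genes on 46 probesets, out of 19937 genes with such a probeset, and each gene was read from its probeset with the highest mean over the 9 arrays. The genes comprised 11 chains of fibrillar collagens, 8 of basement membranes (type IV, Col15a1 and Col18a1) and 25 other chains. HC11 is an established mouse line derived from the mammary gland of mid-pregnancy BALB/c animals. HC11-ΔSAP cells expressed Mkl1-RFP without its SAP domain, a putative DNA-binding region. HC11-mutB1 cells expressed the fusion with mutations in its B1 region, through which Mkl1 contacts SRF, and HC11-FL control cells expressed the full length protein fused to red fluorescent protein (RFP). Every strain was a stably transfected population sorted for RFP that still carried its own Mkl1 gene, and each was starved for 48 h in 0.03% FCS without EGF. The 3 arrays per strain are replicates of the same strain, and the sources do not say whether they come from separate cultures. The spread between them does not include the spread between independent transfections, and strain and construct cannot be told apart.

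Collagens are trimers of chains wound into a triple helix. Fibrillar collagens (types I, II, III, V, XI, XXIV and XXVII) form the tensile fibrils of stroma and cartilage, whereas type IV chains form the sheet-like network of the basement membrane on which mammary epithelial cells rest. The remaining types coat fibrils, build beaded microfibrils or hexagonal networks, anchor the basement membrane or span the plasma membrane. In the mammary gland most fibrillar collagen comes from stromal fibroblasts, whereas epithelial cells make type IV and the anchoring collagens.

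Arrays of one strain correlated at r = 0.994 to 0.995 and arrays of different strains at r = 0.985 to 0.989 over all probesets, and no array stood apart. The Mkl1 probeset (named Mrtfa in the annotation), which may read both the construct and the cells' own gene, had log2 values of 9.41 to 9.55 in HC11-ΔSAP, 9.76 to 9.89 in HC11-mutB1 and 9.86 to 10.08 in HC11-FL cells. The difference of HC11-ΔSAP from HC11-FL was -0.48 (limma, adjusted p = 0.0018), and that of HC11-mutB1 was -0.12 (limma, adjusted p = 0.31). All 6 epithelial markers examined reached a mean of 4 on the log2 scale, as did 0 of 4 endothelial, 2 of 4 leukocyte, 2 of 4 adipocyte, 3 of 4 muscle and 4 of 6 fibroblast markers. The fibroblast markers averaged 5.10 to 5.17 in HC11-ΔSAP, 4.71 to 4.81 in HC11-mutB1 and 4.95 to 5.04 in HC11-FL arrays, with lumican (Lum) and dermatopontin (Dpt) under 4 throughout. Of the fibroblast markers above 4, Pdgfra differed from HC11-FL by -0.42 in HC11-ΔSAP and 0.51 in HC11-mutB1 cells (both called), Pdgfrb by -0.38 and -0.87 (both called), Thy1 by -0.10 and -0.27 (neither called) and Dcn by 1.81 and -0.48 (both called), and their part in the collagen results was not tested. In such bulk RNA, fewer cells of a type and less RNA per cell cannot be told apart.

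Of the 44 collagen genes, 41 had a mean of at least 4, the expression minimum of the study, which lies under the median of every array. Col10a1 (3.59), Col5a2 (3.83) and Col28a1 (3.89) lay under this minimum, and Col4a6 (4.22) and Col14a1 (4.26) lay just above it. A gene was taken as called when limma's adjusted p was at most 0.01 at this minimum. Against HC11-FL, HC11-ΔSAP cells had 3 collagen genes lower and 7 higher, or 24.4% of the 41, where 28.0% of the 13157 genes at the same minimum were called (12.0% lower and 16.0% higher). HC11-mutB1 cells had 0 lower and 12 higher, or 29.3%, against 26.3% of all genes (10.6% lower and 15.7% higher). At an unadjusted limma p under 0.05, HC11-ΔSAP cells had 6 collagen genes lower and 9 higher, and HC11-mutB1 cells had 1 lower and 12 higher. All genes were not counted at this looser threshold, so that these counts have no reference. In both comparisons the share of collagen genes called in either direction was close to the share of all genes. By direction, HC11-ΔSAP cells had 7.32% lower and 17.1% higher (12.0% and 16.0% of all genes). HC11-mutB1 cells had 0% lower and 29.3% higher (10.6% and 15.7% of all genes). Whether these splits differ from that of all genes was not tested.

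With a fold change of at least 2 also required, HC11-ΔSAP cells had 3 collagen genes lower (Col11a1, Col12a1 and Col17a1) and 1 higher (Col6a1), where 2.07% of all genes were lower and 2.06% higher (4.13% in either direction). HC11-mutB1 cells had 0 lower and 4 higher (Col2a1, Col6a1, Col9a3 and Col11a1), where 1.67% and 2.21% of all genes were (3.88% in either direction). The median log2 fold change of the 41 genes was -0.02 in both comparisons, against 0.00 (HC11-ΔSAP) and -0.01 (HC11-mutB1) over all genes. Most collagen genes thus differed little, and a few differed strongly. The arrays of the strains compared did not overlap for 15 of the 41 genes in HC11-ΔSAP against HC11-FL (53.4% of all genes), for 17 in HC11-mutB1 against HC11-FL (55.1%) and for 16 in HC11-ΔSAP against HC11-mutB1 (51.0%). Both mutant strains were set against the same 3 HC11-FL arrays, so that the 2 comparisons are not independent.

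**Figure D1:**
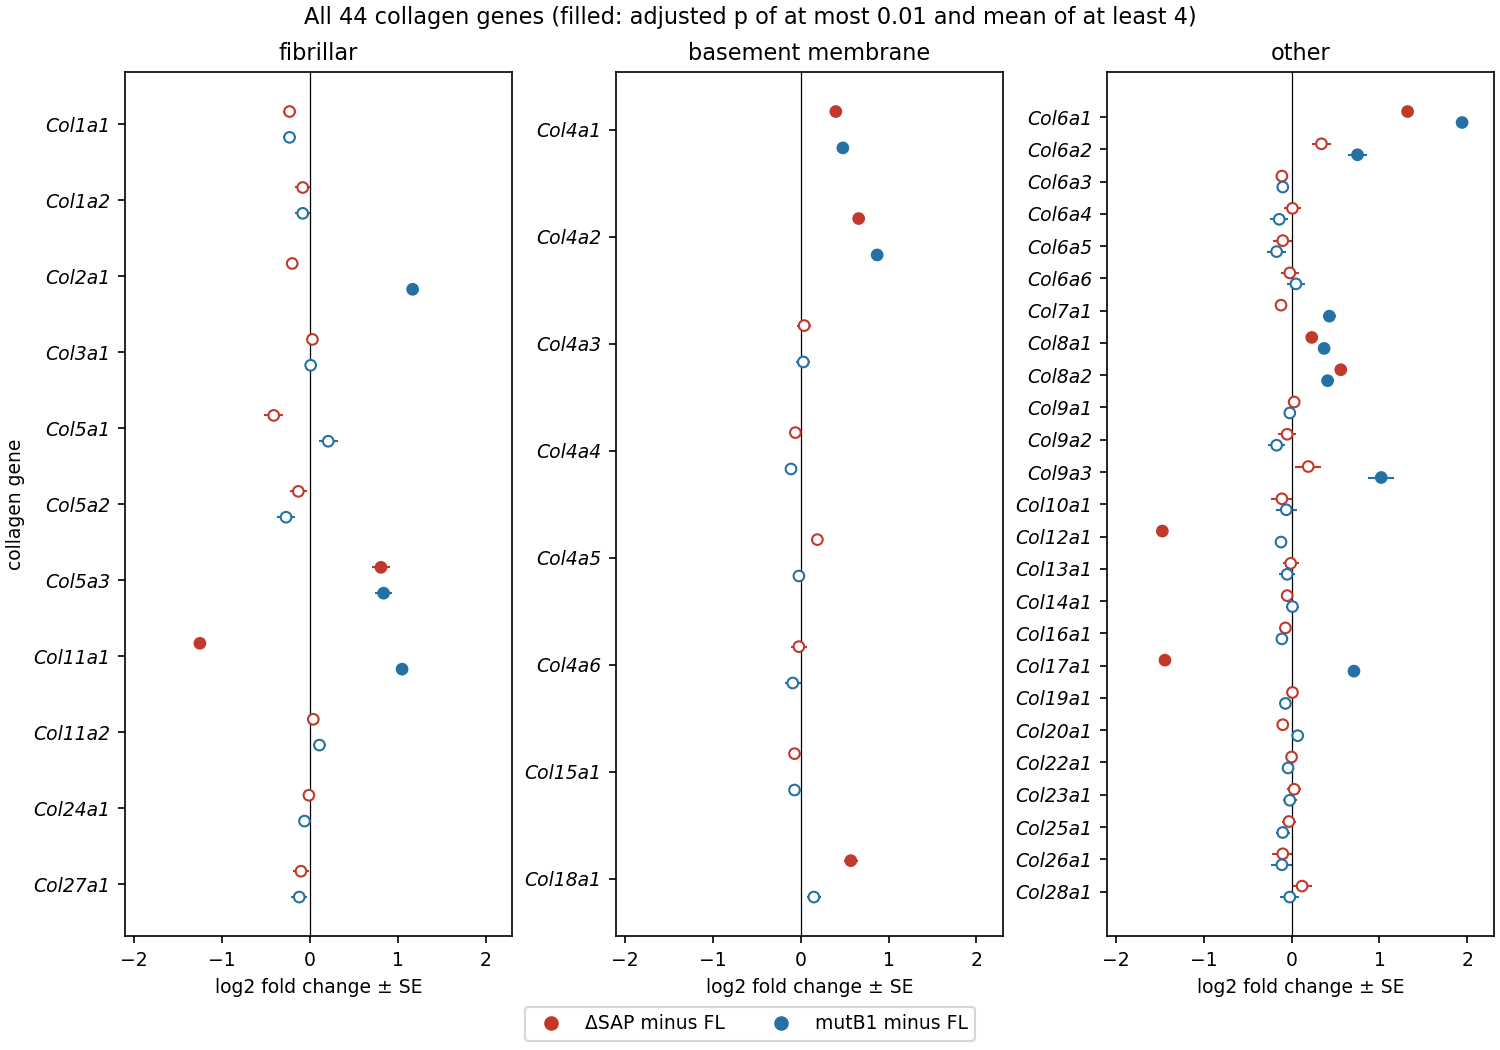
Log2 fold change ± SE of all 44 collagen genes against HC11-FL in HC11-ΔSAP (red) and HC11-mutB1 (blue) cells, by class, with filled points for called genes (3 arrays per strain). Col11a1 and Col17a1 lie left of 0 in HC11-ΔSAP and right of it in HC11-mutB1 cells, Col12a1 lies at -1.47 in HC11-ΔSAP cells alone, and Col6a1 lies furthest to the right in both.

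Of the 8 basement membrane chains, 0 were lower and 3 higher in HC11-ΔSAP (37.5% called, against 28.0% of all genes), while the HC11-mutB1 strain had 0 lower and 2 higher (25.0%, against 26.3%), all by less than 2-fold. Of the 10 fibrillar chains at the minimum, HC11-ΔSAP cells had 1 lower and 1 higher, and HC11-mutB1 cells had 0 lower and 3 higher. Among the other chains (23 at the minimum), the HC11-ΔSAP strain had 2 lower and 3 higher, and the HC11-mutB1 strain 0 lower and 7 higher. The class medians lay between -0.09 (fibrillar, HC11-ΔSAP) and 0.11 (basement membrane, HC11-ΔSAP) on the log2 scale. Of the other chains 21.7% were thus called in HC11-ΔSAP and 30.4% in HC11-mutB1 cells, and whether any class differs from all genes was not tested. Read jointly, 6 genes were higher in both mutant strains (Col4a1, Col4a2, Col5a3, Col6a1, Col8a1 and Col8a2), a pattern that 9.52% of all genes had. Another 2, Col11a1 and Col17a1, fell in HC11-ΔSAP but rose in HC11-mutB1 cells, a pattern of 1.17% of all genes. None of the collagen genes was lower in both strains (5.19% of all genes) or rose in HC11-ΔSAP and fell in HC11-mutB1 cells (0.821%).

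The promoters of Col11a1 and Col17a1, the genes with opposite directions in the mutant strains, and of Col6a1, the gene with the largest rise, are printed here as RefSeq gives them (GRCm38.p6), 5′ to 3′ on the strand of the gene. Positions count back from the start that the RefSeq promoter table uses, with -1 the base before it. The stretches of Col17a1 and Col6a1 run to -1, that of Col11a1 was cut at -62, before the outermost annotated start of the gene, and that of Col4a2 runs from -33 to -4. The stretch before Col4a2 is added because the gene starts 21 bases from Col4a1 on the opposite strand and both genes were higher in both mutant strains. This stretch overlaps the annotated Col4a1 gene. Capitals mark matches on either strand to the GC box core GGGCGG, to the CCAAT box or to the TATA sequence TATAAA.
Col11a1, chr3:114030290-114030478, plus strand: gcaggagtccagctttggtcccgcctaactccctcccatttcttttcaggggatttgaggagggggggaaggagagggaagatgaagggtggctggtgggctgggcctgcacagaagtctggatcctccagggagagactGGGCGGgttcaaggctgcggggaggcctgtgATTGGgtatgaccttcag
Col17a1, chr19:47692043-47692292, minus strand: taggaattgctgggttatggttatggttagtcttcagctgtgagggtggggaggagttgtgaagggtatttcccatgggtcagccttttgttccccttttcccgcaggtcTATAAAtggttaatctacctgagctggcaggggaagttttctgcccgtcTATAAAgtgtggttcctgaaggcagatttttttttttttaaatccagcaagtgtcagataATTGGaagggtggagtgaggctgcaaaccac
Col6a1, chr10:76726045-76726294, minus strand: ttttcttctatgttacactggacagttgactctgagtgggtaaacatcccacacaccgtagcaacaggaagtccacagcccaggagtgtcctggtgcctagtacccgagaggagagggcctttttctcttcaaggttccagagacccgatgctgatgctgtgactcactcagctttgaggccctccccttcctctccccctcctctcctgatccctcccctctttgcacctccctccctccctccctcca
Col4a2, chr8:11312772-11312801, plus strand: cCCAATttgttggcgctgccccctcccctc

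Col11a1 has GGGCGG at positions -110 to -105 from the start and CCAAT on the other strand (ATTGG) at -79 to -75, whereas Col17a1 has TATAAA at -140 to -135 and -91 to -86 and ATTGG at -31 to -27. The Col6a1 window holds none of these, and the short stretch of Col4a2 has CCAAT at -32 to -28. Outside the printed stretch, Col4a2 also has GGGCGG within 250 bases before its start. In all, 35 collagen genes had 38 such windows of 250 bases, searched on both strands. GGGCGG, the core of the GC box, was in 22 of them (57.9%), against 32.7% of the 32851 windows of all genes. CCAAT was in 13 (34.2%, against 33.8%), TATAAA in 5 (13.2%, against 12.4%) and GGAATG, a core to which TEAD factors bind, in 4 (10.5%, against 12.6%). The CArG box, to which SRF binds, was found in 1 window, that of Col6a4 (2.63%, against 1.47%), a gene that was not called. These matches are descriptions of sequence, and no factor's binding was measured.

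Col11a1, a fibrillar chain of type XI, which nucleates thin fibrils in cartilage, had the widest separation between the strains. Its log2 values were 6.99, 6.88 and 6.98 in HC11-ΔSAP, 9.23, 9.21 and 9.29 in HC11-mutB1 and 8.19 in every HC11-FL array. The 3 strains did not overlap, and HC11-FL cells lay between the mutants. The level was 2.37-fold lower in HC11-ΔSAP (log2 fold change -1.25, SE 0.05, limma adjusted p = 1.2e-06) than in HC11-FL cells. In HC11-mutB1 cells it was 2.07-fold above HC11-FL (1.05, SE 0.05, adjusted p = 2.8e-06). HC11-ΔSAP cells stood 4.91-fold below HC11-mutB1 cells (-2.29, SE 0.05, adjusted p = 1.4e-07). Its type XI partner chain Col11a2 averaged 5.68 in HC11-ΔSAP, 5.75 in HC11-mutB1 and 5.64 in HC11-FL cells and was not called.

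Col17a1 encodes a transmembrane collagen of hemidesmosomes, which fasten basal epithelial cells to the basement membrane. It had log2 values of 6.28, 6.23 and 6.31 in HC11-ΔSAP, 8.42, 8.44 and 8.42 in HC11-mutB1 and 7.71 in every HC11-FL array. The order of the strains was that of Col11a1, again without overlap. The level was 2.71-fold lower in HC11-ΔSAP (-1.44, SE 0.04, adjusted p = 3.3e-07) than in HC11-FL cells. In HC11-mutB1 cells it was 1.64-fold above HC11-FL (0.71, SE 0.04, adjusted p = 9.5e-06), and HC11-ΔSAP cells stood 4.44-fold below HC11-mutB1 cells (-2.15, SE 0.04, adjusted p = 1.3e-07). The basal keratins Krt5 and Krt14 moved in the same directions, and none of the other epithelial markers did so in both strains. Krt5, the keratin partner of Krt14 in basal cells, averaged 7.59 in HC11-ΔSAP, 10.64 in HC11-mutB1 and 9.49 in HC11-FL cells, with log2 fold changes of -1.90 and 1.15 against HC11-FL. Krt14 averaged 10.59, 11.45 and 10.86 in HC11-ΔSAP, HC11-mutB1 and HC11-FL cells, with log2 fold changes of -0.27 (adjusted p = 0.0013) and 0.59 (adjusted p = 2.0e-05), and the part of such cells in the result for Col17a1 was not tested. In HC11-ΔSAP and HC11-mutB1 cells against HC11-FL, the luminal keratins differed by -0.32 and -0.72 (Krt8) and by -1.36 and -0.65 (Krt18), and the junction genes by 0.42 and 0.54 (Epcam) and by 0.37 and 0.12 (Cdh1).

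The HC11-FL values of Col11a1 and Col17a1 were identical in all 3 arrays to every deposited digit. A value shared by arrays, of the same or of different strains, occurred in 15714 probesets (45.2%) of the deposited matrix. It occurred in 27 of the 44 collagen genes (61.4%), of which 16 had a repeat within a strain. Only 4 collagen genes had 1 value in all arrays of a strain. How the repeats arose was not tested. Those within a strain make the spread between its arrays smaller than independent values would. Of the 15 collagen genes called in any comparison, 5 had a repeat within a strain (Col5a1, Col7a1, Col9a3, Col11a1 and Col17a1).

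Col12a1, a collagen that sits on the surface of type I fibrils, was lower in HC11-ΔSAP cells and was not called in HC11-mutB1 cells. Its values were 7.05, 6.77 and 6.95 in HC11-ΔSAP, 8.25, 8.24 and 8.31 in HC11-mutB1 and 8.37, 8.40 and 8.41 in HC11-FL cells. All HC11-ΔSAP arrays lay more than 1 log2 unit below every other array. The level in HC11-ΔSAP cells was 2.77-fold below HC11-FL (-1.47, SE 0.07, adjusted p = 4.7e-06) and 2.54-fold below HC11-mutB1 cells (-1.34, SE 0.07, adjusted p = 8.4e-06). HC11-mutB1 cells differed from HC11-FL by -0.12 (95% interval -0.29 to 0.04, adjusted p = 0.31).

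Col2a1 and Col9a3, which encode chains of the type II and type IX collagens of cartilage, were higher in HC11-mutB1 cells. Col2a1 values were 6.07, 5.99 and 5.94 in HC11-ΔSAP, 7.40, 7.34 and 7.36 in HC11-mutB1 and 6.25, 6.11 and 6.24 in HC11-FL cells. The HC11-mutB1 arrays lay above all others, 2.25-fold above HC11-FL (1.17, SE 0.06, adjusted p = 4.5e-06), and HC11-ΔSAP cells were 2.58-fold below HC11-mutB1 (-1.37, SE 0.06, adjusted p = 2.6e-06). HC11-ΔSAP cells differed from HC11-FL cells by -0.20, with an adjusted p of 0.04 that missed the threshold. The trimer of type XI collagen also holds a chain made from Col2a1, beside those of Col11a1 and Col11a2.

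Col9a3 was measured with a wider spread. Its values were 6.88, 6.88 and 6.70 in HC11-ΔSAP, 7.83, 7.44 and 7.69 in HC11-mutB1 and 6.88, 6.36 and 6.64 in HC11-FL cells. HC11-mutB1 arrays lay above the rest, while HC11-ΔSAP and HC11-FL overlapped (0.19, SE 0.15, adjusted p = 0.49). HC11-mutB1 cells were 2.03-fold above HC11-FL (1.02, SE 0.15, adjusted p = 0.0017), a call that was lost when only these 2 strains were fitted (adjusted p = 0.011). The difference fell under 2-fold without HC11-FL array 2 (0.89), without HC11-mutB1 array 1 (0.93) and when the arrays were quantile normalised again (0.98). HC11-ΔSAP cells were 1.78-fold below HC11-mutB1 cells (-0.83, SE 0.15, adjusted p = 0.0061), a call lost in 6 of 9 fits that each left out an array (adjusted p of 0.014 to 0.027, without HC11-FL array 3, HC11-mutB1 array 1 or 3 or any HC11-ΔSAP array). The other type IX chains were not called, with means of 5.10, 5.06 and 5.07 for Col9a1 and 6.31, 6.20 and 6.36 for Col9a2 in HC11-ΔSAP, HC11-mutB1 and HC11-FL cells.

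**Figure D2:**
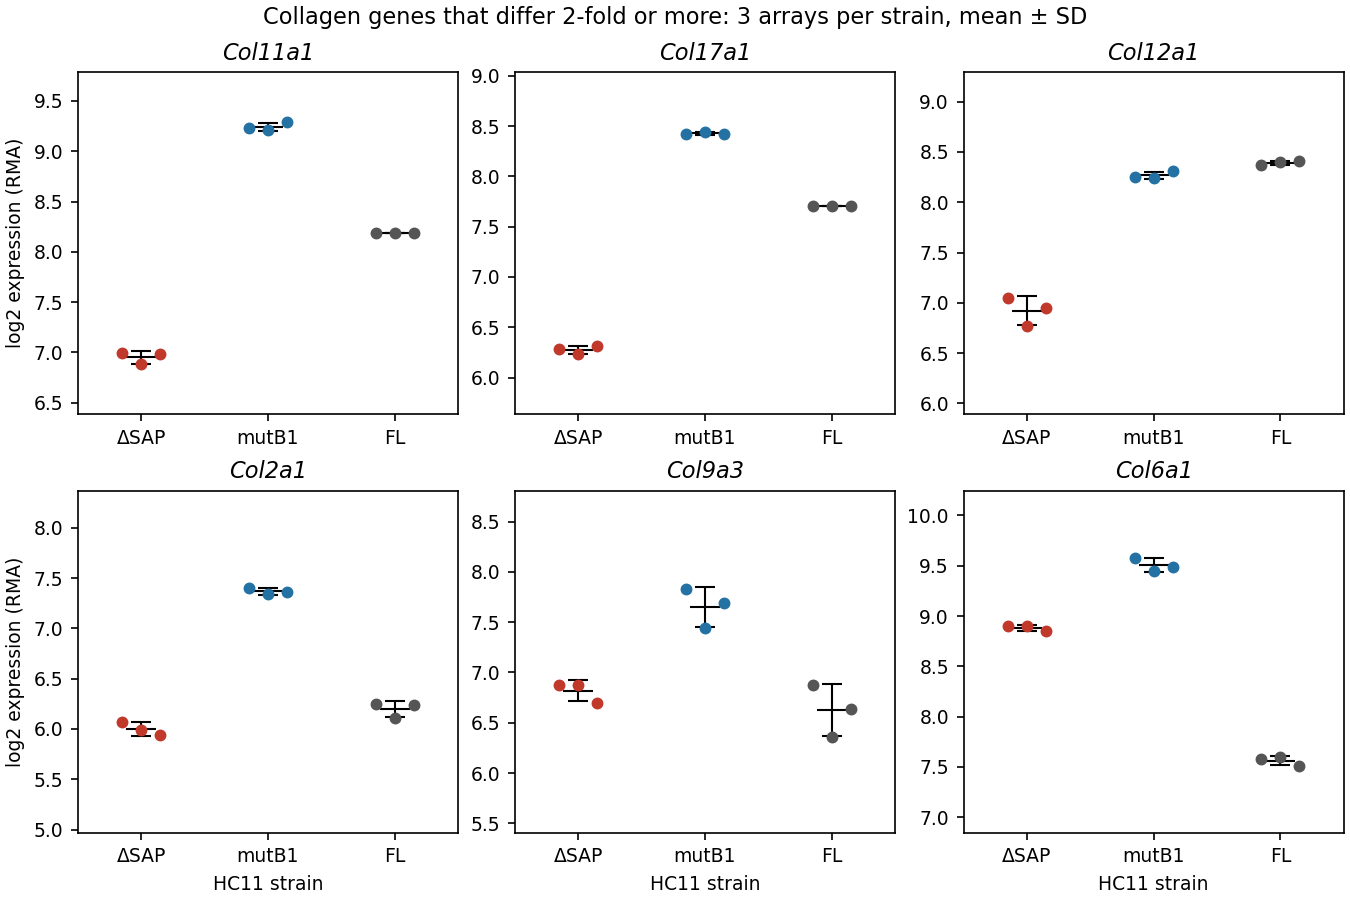
Log2 expression of the 6 collagen genes that differed at least 2-fold from HC11-FL in a mutant strain, with points for the 3 arrays of each strain and lines for the mean ± SD (every panel spans an equal range, and the axes do not start at 0). Col11a1 and Col17a1 have HC11-FL between the mutants, Col12a1 is low in HC11-ΔSAP only, Col2a1 and Col9a3 are high in HC11-mutB1 only, and Col6a1 is low in HC11-FL.

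Col6a1, the α1 chain of the beaded microfibrils of type VI collagen, had the largest rise of all collagen genes. Its values were 8.90, 8.90 and 8.85 in HC11-ΔSAP, 9.58, 9.45 and 9.49 in HC11-mutB1 and 7.58, 7.60 and 7.51 in HC11-FL cells, without overlap. The level was 2.49-fold higher in HC11-ΔSAP (1.32, SE 0.05, adjusted p = 1.3e-06) than in HC11-FL cells, while HC11-mutB1 cells stood 3.84-fold above HC11-FL (1.94, SE 0.05, adjusted p = 2.3e-07). HC11-ΔSAP cells stood 1.54-fold below HC11-mutB1 cells (-0.62, SE 0.05, adjusted p = 8.2e-05).

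Col6a2, the α2 chain of type VI and the neighbour of Col6a1 on chromosome 10, moved less. Its values were 6.16, 6.17 and 6.22 in HC11-ΔSAP, 6.51, 6.65 and 6.62 in HC11-mutB1 and 6.12, 5.68 and 5.73 in HC11-FL cells. HC11-mutB1 cells were 1.68-fold above HC11-FL (0.75, SE 0.11, adjusted p = 0.0018), and this call was lost when only these strains were fitted (adjusted p = 0.012). HC11-ΔSAP cells were 0.34 above HC11-FL on the log2 scale (SE 0.11, adjusted p = 0.07). The first HC11-FL array lay apart from the others of its strain, and without it HC11-ΔSAP cells were called against both HC11-FL (0.48, adjusted p = 0.0016) and HC11-mutB1 cells (-0.41, adjusted p = 0.0021). The chain that completes the common trimer, Col6a3, averaged 4.91 in HC11-ΔSAP, 4.91 in HC11-mutB1 and 5.01 in HC11-FL cells and was not called. Neither were Col6a4, Col6a5 and Col6a6, which can take its place.

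Among the basement membrane chains, Col4a1 and Col4a2, which form the common type IV trimer and lie head to head on chromosome 8, were both higher in both mutant strains. Col4a2 values were 8.27, 8.29 and 8.35 in HC11-ΔSAP, 8.58, 8.45 and 8.52 in HC11-mutB1 and 7.69, 7.62 and 7.63 in HC11-FL cells, with HC11-ΔSAP 1.58-fold (0.66, SE 0.05, adjusted p = 4.9e-05) and HC11-mutB1 1.83-fold (0.87, SE 0.05, adjusted p = 1.1e-05) above HC11-FL. Col4a1 values were 7.58, 7.62 and 7.56 in HC11-ΔSAP, 7.70, 7.68 and 7.62 in HC11-mutB1 and 7.27, 7.07 and 7.20 in HC11-FL cells. Its rise was 1.32-fold in HC11-ΔSAP (0.40, SE 0.06, adjusted p = 0.0016) and 1.4-fold in HC11-mutB1 cells (0.48, SE 0.06, adjusted p = 6.6e-04). For both genes every HC11-FL array lay below every mutant array. Between the mutants, HC11-ΔSAP minus HC11-mutB1 was -0.08 for Col4a1 (95% interval -0.21 to 0.05) and -0.21 for Col4a2 (adjusted p = 0.023), neither of them called.

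The chains of the other type IV trimers were not called. Col4a5 had 8.50, 8.60 and 8.63 in HC11-ΔSAP, 8.38, 8.33 and 8.40 in HC11-mutB1 and 8.31, 8.43 and 8.42 in HC11-FL cells (0.19, adjusted p = 0.042 in HC11-ΔSAP, and -0.02, adjusted p = 0.88 in HC11-mutB1 cells). Col4a3, Col4a4, Col4a6 and Col15a1 had strain means between 4.17 and 5.09.

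Col18a1, a basement membrane collagen that carries heparan sulfate and yields endostatin, was the only basement membrane gene called between the mutants. Its values were 6.48, 6.64 and 6.46 in HC11-ΔSAP, 5.98, 6.18 and 6.18 in HC11-mutB1 and 6.02, 5.89 and 5.97 in HC11-FL cells. HC11-ΔSAP arrays lay above all others, 1.48-fold above HC11-FL (0.57, SE 0.08, adjusted p = 0.0011) and 1.33-fold above HC11-mutB1 cells (0.41, SE 0.08, adjusted p = 0.0077). The second of these calls was lost in all 9 fits that left out an array, with adjusted p between 0.012 and 0.028. HC11-mutB1 cells differed from HC11-FL by 0.15 (95% interval -0.03 to 0.33, adjusted p = 0.25).

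The type VIII chains, which build hexagonal networks, were modestly higher in both mutant strains. Col8a1 values were 9.63, 9.59 and 9.64 in HC11-ΔSAP, 9.74, 9.77 and 9.76 in HC11-mutB1 and 9.37, 9.37 and 9.43 in HC11-FL cells. The difference from HC11-FL was 1.17-fold for HC11-ΔSAP (0.23, adjusted p = 0.0041) and 1.29-fold for HC11-mutB1 (0.37, adjusted p = 3.5e-04). The HC11-ΔSAP call was lost in 5 of 9 fits that left out an array, those without HC11-FL array 1 or 2 or any HC11-ΔSAP array (adjusted p of 0.012 to 0.017). Col8a2 values were 6.83, 6.94 and 6.78 in HC11-ΔSAP, 6.72, 6.67 and 6.71 in HC11-mutB1 and 6.36, 6.33 and 6.18 in HC11-FL cells. The rise was 1.48-fold in HC11-ΔSAP (0.56, adjusted p = 4.0e-04) and 1.33-fold in HC11-mutB1 cells (0.41, adjusted p = 0.0023). The call in HC11-mutB1 cells was lost without array 1 (0.40, adjusted p = 0.012) or array 3 (0.41, adjusted p = 0.011) of that strain.

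Col5a3, a minor fibrillar chain of type V, rose by nearly the same amount in both mutant strains. Its values were 7.18, 7.06 and 7.02 in HC11-ΔSAP, 7.20, 6.99 and 7.14 in HC11-mutB1 and 6.36, 6.06 and 6.39 in HC11-FL cells. It was 1.76-fold higher in HC11-ΔSAP (0.81, SE 0.10, adjusted p = 6.7e-04), and HC11-mutB1 cells stood 1.79-fold above HC11-FL (0.84, SE 0.10, adjusted p = 6.4e-04). HC11-ΔSAP minus HC11-mutB1 was -0.02 with a 95% interval of -0.26 to 0.21. The main type V chain, Col5a1, had 6.02, 5.84 and 5.58 in HC11-ΔSAP, 6.50, 6.35 and 6.43 in HC11-mutB1 and 6.29, 6.19 and 6.19 in HC11-FL cells. It was not called against HC11-FL (-0.41, adjusted p = 0.028 in HC11-ΔSAP, and 0.21, adjusted p = 0.26 in HC11-mutB1 cells), except that HC11-ΔSAP passed without its first array (-0.52, adjusted p = 0.0072). HC11-ΔSAP cells were 1.53-fold below HC11-mutB1 cells (-0.62, SE 0.11, adjusted p = 0.0053), a call lost in 7 of 9 fits that left out an array, all but those without HC11-ΔSAP array 1 or 3 (adjusted p of up to 0.024).

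Col7a1, whose product forms the anchoring fibrils beneath epithelial basement membranes, was higher in HC11-mutB1 cells. Its values were 7.55, 7.44 and 7.39 in HC11-ΔSAP, 8.11, 7.96 and 7.95 in HC11-mutB1 and 7.62, 7.51 and 7.62 in HC11-FL cells. HC11-mutB1 arrays lay above all others, 1.34-fold above HC11-FL (0.43, SE 0.07, adjusted p = 0.0024), a call that narrowly missed the threshold without the second HC11-FL array (0.39, adjusted p = 0.01 after rounding). HC11-ΔSAP and HC11-FL overlapped (-0.12, adjusted p = 0.29), and HC11-ΔSAP cells were 1.47-fold below HC11-mutB1 cells (-0.55, SE 0.07, adjusted p = 7.4e-04).

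**Figure D3:**
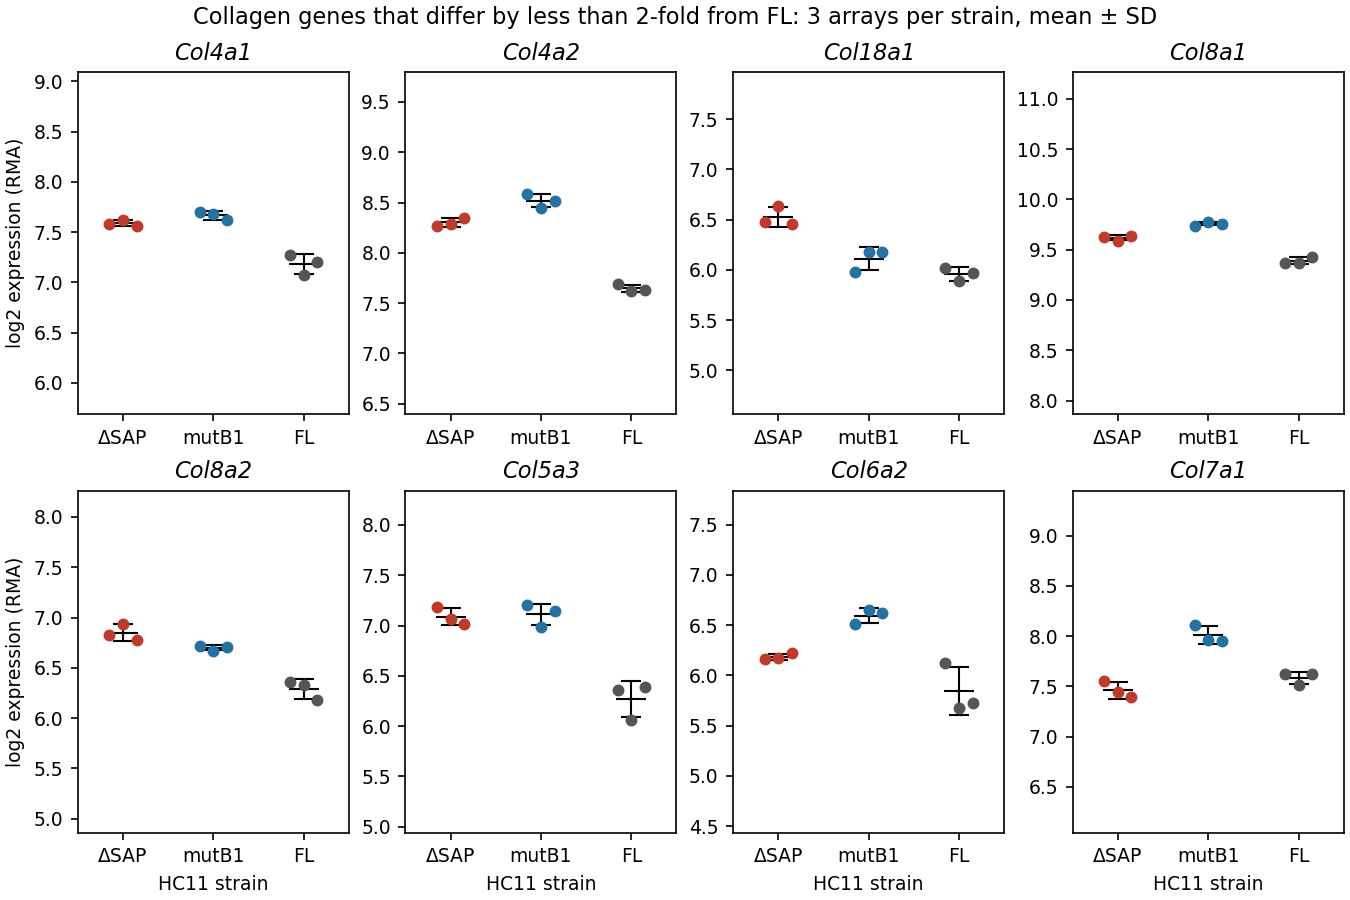
Log2 expression of the 8 collagen genes called against HC11-FL with a difference under 2-fold, with points for the 3 arrays of each strain and lines for the mean ± SD (panels span the same range as those of the 6 stronger genes). In the panels of Col4a1, Col4a2, Col8a1, Col8a2 and Col5a3 both mutant strains lie above HC11-FL, Col18a1 is highest in HC11-ΔSAP, and Col6a2 and Col7a1 are highest in HC11-mutB1 cells.

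The collagens that dominate stromal fibrils differed little in array signal. Col1a1, the α1 chain of type I, had 5.81, 5.69 and 5.73 in HC11-ΔSAP, 5.81, 5.80 and 5.62 in HC11-mutB1 and 6.07, 5.86 and 5.98 in HC11-FL cells. Its log2 fold change was -0.23 (95% interval -0.40 to -0.05, adjusted p = 0.078) in both mutant strains, so that it was not called. Its partner Col1a2 differed by -0.08 in HC11-ΔSAP (95% interval -0.29 to 0.13) and by -0.08 in HC11-mutB1 cells (-0.29 to 0.12). Col3a1 differed by 0.03 (-0.09 to 0.15) and 0.01 (-0.11 to 0.13) in HC11-ΔSAP and HC11-mutB1 cells. For Col1a2 and Col3a1 these intervals leave out any 2-fold change of array signal. Their means over the 9 arrays were 5.39 and 5.57, and RMA narrows differences of dim probesets. The intervals therefore do not exclude a 2-fold change of RNA.

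In the direct comparison of the mutants, HC11-ΔSAP cells had 8 collagen genes lower and 1 higher than HC11-mutB1 cells, or 19.5% and 2.44% of the 41, where 10.6% of all genes were lower and 9.86% higher (20.5% in either direction). The 8 lower genes were Col2a1, Col5a1, Col6a1, Col7a1, Col9a3, Col11a1, Col12a1 and Col17a1, and the higher gene was Col18a1. At least 2-fold were 4 lower (Col2a1, Col11a1, Col12a1 and Col17a1) and 0 higher, against 2.28% and 1.61% of all genes. At an unadjusted limma p under 0.05, 12 were lower and 3 higher, a threshold at which all genes were not counted. The median over the 41 genes was 0.01, against 0.02 over all genes, and whether the split of the calls differs from that of other genes was not tested.

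The called genes were those with higher probeset values. Of the 24 collagen genes with a mean of 4 to under 6, 0 were called in any of the 3 comparisons, against 17.7% of the 4146 genes in this range. Of the 17 with a mean of 6 or more, 15 were called in at least 1 (88.2%), against 50.3% of the 9011 genes there, and the exceptions were Col4a5 and Col9a2. In all, 15 of 41 were called in at least 1 comparison, where 40.0% of all genes were. The 26 genes called in none had log2 fold changes of -0.23 to 0.19 in HC11-ΔSAP and -0.23 to 0.11 in HC11-mutB1 cells against HC11-FL, and of -0.17 to 0.21 for HC11-ΔSAP minus HC11-mutB1. A probeset's value also depends on how well it reads its RNA, so that these bands are of array signal and not of RNA level.

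**Figure D4:**
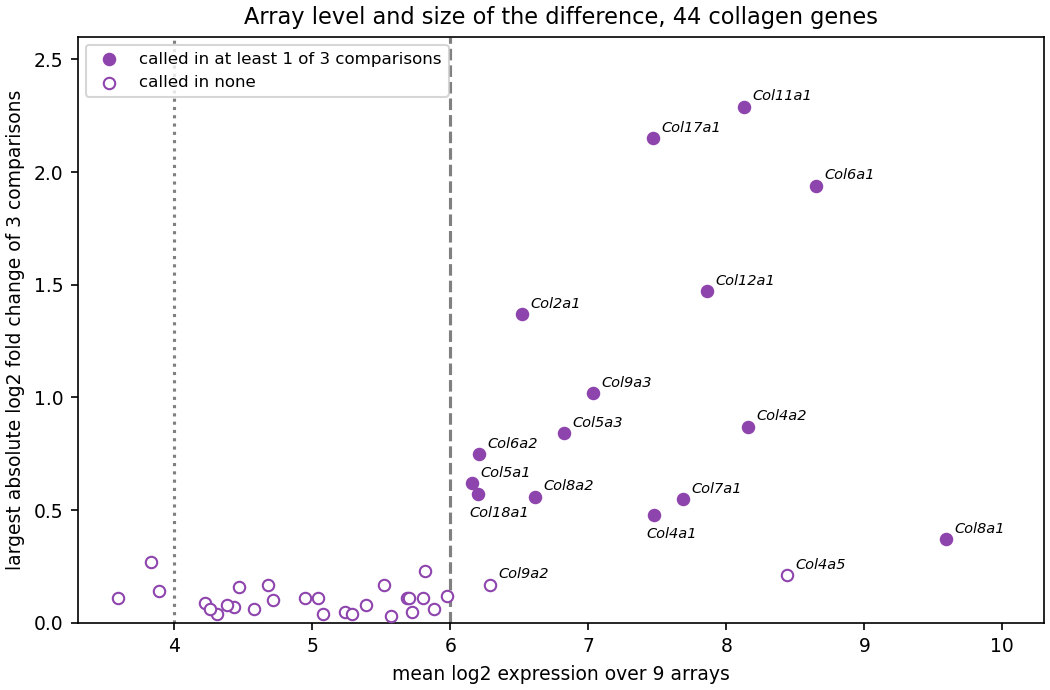
Largest absolute log2 fold change among the 3 comparisons against the mean log2 expression over the 9 arrays for the 44 collagen genes, filled where a gene was called in at least 1 comparison (dotted line at a mean of 4, dashed line at 6). All filled points lie right of the dashed line, and the open points right of it are Col4a5 and Col9a2.

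The enzymes and receptors that serve collagens were read from lists of 63 genes on the array, of which 49 had a mean of at least 4. HC11-ΔSAP cells had 11 lower and 11 higher than HC11-FL, HC11-mutB1 cells had 12 lower and 9 higher than HC11-FL, and HC11-ΔSAP cells had 6 lower and 9 higher than HC11-mutB1 cells. These are 44.9%, 42.9% and 30.6% of the 49 genes, where 28.0%, 26.3% and 20.5% of all genes were called, and whether the lists differ from other genes was not tested. Among 19 genes of chain synthesis and folding, 3 fell and 6 rose in HC11-ΔSAP, and 4 fell and 4 rose in HC11-mutB1 cells. The 10 genes of propeptide removal and cross-linking had 4 lower and 2 higher in either mutant strain. Of 8 receptors, 2 fell and 1 rose in HC11-ΔSAP, and 1 fell and 2 rose in HC11-mutB1 cells. Of 7 proteins that bind fibrils, 1 fell and 1 rose in HC11-ΔSAP, and 1 fell and 0 rose in HC11-mutB1 cells. Of 5 genes of collagen breakdown, 1 fell and 1 rose in HC11-ΔSAP, and 2 fell and 1 rose in HC11-mutB1 cells.

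P4ha1 and P4ha2, catalytic subunits of the prolyl 4-hydroxylases that stabilise the triple helix, were lower in both mutant strains, and the other catalytic subunit, P4ha3, which lay at the minimum (mean 4.04), was not called (0.19, adjusted p = 0.13 in HC11-ΔSAP, and 0.11, adjusted p = 0.38 in HC11-mutB1 cells). P4ha1 values were 7.86, 7.92 and 8.07 in HC11-ΔSAP, 8.30, 8.36 and 8.44 in HC11-mutB1 and 9.22, 9.23 and 9.22 in HC11-FL cells (log2 fold change -1.27, adjusted p = 5.1e-06 in HC11-ΔSAP, and -0.86, adjusted p = 4.1e-05 in HC11-mutB1 cells). P4ha2 values were 6.98, 6.98 and 6.99 in HC11-ΔSAP, 5.80, 5.81 and 5.85 in HC11-mutB1 and 7.78, 7.82 and 7.86 in HC11-FL cells (-0.83, adjusted p = 4.7e-06, and -2.00, adjusted p = 7.8e-08). The chaperone of procollagen, Serpinh1, was lower as well (-0.60, adjusted p = 0.0029 in HC11-ΔSAP, and -0.56, adjusted p = 0.0045 in HC11-mutB1 cells), whereas P4hb, the shared β subunit of the hydroxylases, was higher (0.50, adjusted p = 9.3e-05, and 0.39, adjusted p = 3.8e-04). The hydroxylase subunits therefore did not move in 1 direction. Serpinh1 and P4hb were picked for mention after their values were seen.

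Lox, the lysyl oxidase that cross-links fibrils, had 8.20, 8.30 and 8.34 in HC11-ΔSAP, 2.75, 3.55 and 3.63 in HC11-mutB1 and 10.41, 10.57 and 10.47 in HC11-FL cells. The log2 fold change was -2.20 (adjusted p = 1.6e-04) in HC11-ΔSAP and -7.17 (adjusted p = 3.6e-07) in HC11-mutB1 cells. All HC11-mutB1 values of Lox lay under the minimum of 4, so that the size of this fall is not well measured. Ddr2, a receptor kinase for fibrillar collagens, had 4.54, 4.25 and 4.45 in HC11-ΔSAP, 4.04, 4.06 and 4.19 in HC11-mutB1 and 6.82, 7.26 and 7.22 in HC11-FL cells, being 6.45-fold lower in HC11-ΔSAP (adjusted p = 4.0e-06) and 8.03-fold lower in HC11-mutB1 cells (adjusted p = 2.1e-06). The mutant values of Ddr2 lay close to the minimum of 4. Lox and Ddr2 separated the strains more widely than any collagen did. So did Mmp13 of the breakdown list, with log2 fold changes of -3.08 (HC11-ΔSAP) and -3.84 (HC11-mutB1) against HC11-FL. The HC11-mutB1 values of Mmp13 (3.93, 4.15 and 3.99) lay around the minimum of 4. Dcn, the proteoglycan decorin that coats fibrils and is also on the list of fibroblast markers, averaged 6.82 in HC11-ΔSAP, 4.52 in HC11-mutB1 and 5.01 in HC11-FL cells (1.81, adjusted p = 2.0e-07, and -0.48, adjusted p = 1.4e-04).

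The enhancers of procollagen C-proteinase, which speed removal of the C-terminal propeptide of fibrillar chains, differed from each other. Pcolce averaged 8.44 in HC11-ΔSAP, 7.38 in HC11-mutB1 and 8.10 in HC11-FL cells, with HC11-ΔSAP higher than HC11-FL (0.35, adjusted p = 0.0035) and HC11-mutB1 lower (-0.72, adjusted p = 7.4e-05). Pcolce2 averaged 5.14 in HC11-ΔSAP, 6.78 in HC11-mutB1 and 6.32 in HC11-FL cells, with HC11-ΔSAP lower (-1.18, adjusted p = 0.0012) and HC11-mutB1 not called (0.46, adjusted p = 0.095). The strain means of Pcolce2 lay in the order of those of Col11a1 and Col17a1. This order was not particular to them, since the means of Col2a1, Col5a1, Col7a1, Krt5 and Krt14 had it too.

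**Figure D5:**
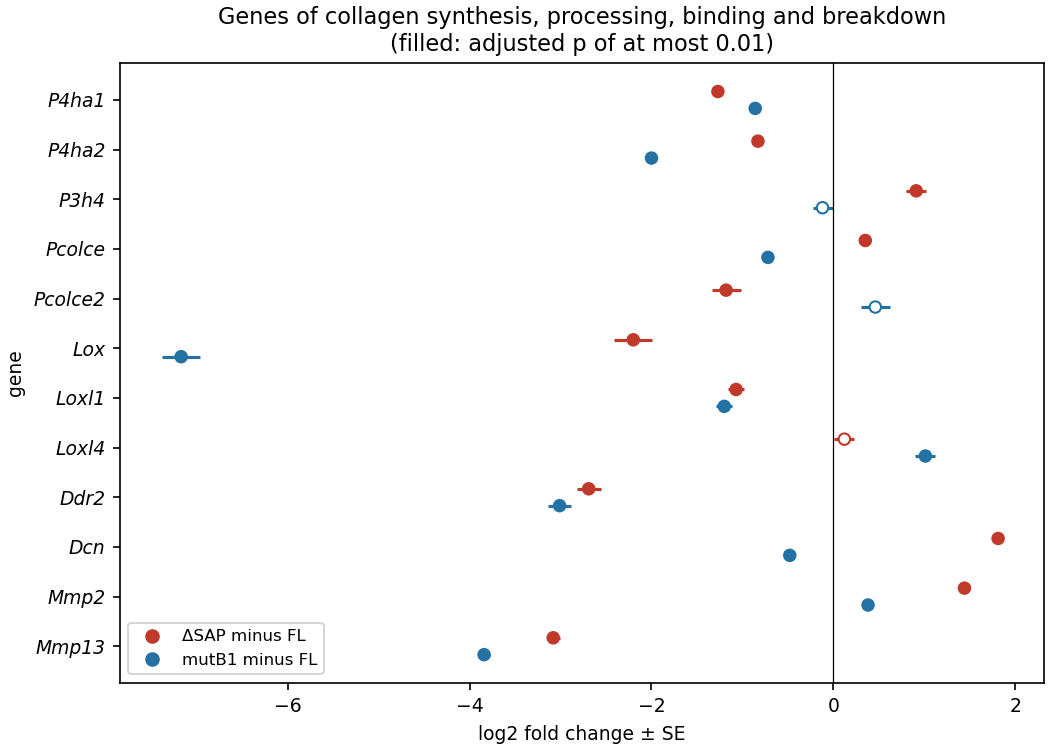
Log2 fold change ± SE against HC11-FL in HC11-ΔSAP (red) and HC11-mutB1 (blue) cells for the 12 partner genes that differed at least 2-fold in any of the 3 comparisons, filled where the adjusted p was at most 0.01. P4ha1, P4ha2, Lox, Loxl1, Ddr2 and Mmp13 lie left of 0 in both strains, and Mmp2 and Loxl4 lie right of it in both. Dcn, Pcolce, Pcolce2 and P3h4 lie on opposite sides. The open points are Loxl4 in HC11-ΔSAP and Pcolce2 and P3h4 in HC11-mutB1 cells.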

How the data were processed

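Total RNA of 9 samples was hybridised to Affymetrix Mouse Gene 1.0 ST arrays. The authors deposited log2 expression values after RMA (affy, R 2.10.0), which corrects background, normalises quantiles and summarises probes. RMA narrows differences of dim probesets. The genome build is not given in the sources used here. Of 34760 probesets, 21640 had 1 gene symbol in the platform annotation, 1321 several and 11799 none. Strain means were fitted by limma 3.58.1 in R 4.3.3 with empirical Bayes over all probesets and 3 strains (6 residual degrees of freedom), and p-values were Benjamini-Hochberg adjusted over all of them. A call needed an adjusted p of at most 0.01 and a mean of at least 4, and a 2-fold change where stated. These thresholds are the study's, but the study required all of them together, so that calls under 2-fold would not pass its rule. Genes called at 2-fold or more in any comparison, the genes with the highest mean of each class and those beside the minimum were named by rule, and the other called genes, Col1a1, Col1a2, Col3a1 and the partner chains of trimers were added after their values were seen. The collagen genes and lists were chosen with earlier results of these data known. The number of arrays limits precision, and p-values measure the spread between the 3 replicate arrays of a strain, which may not be separate cultures. The fit was tested on simulated data. Alternatives covered the minimum, the threshold, the fit, the scaling, the probeset choice, the replicate block and omitted arrays.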

Additional observations from a re-analysis of the deposited data

Results flagged for a closer look

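Col11a1 and Col17a1 stood out because their differences from HC11-FL ran in opposite directions in the mutant strains, down in the HC11-ΔSAP and up in the HC11-mutB1 strain. The direct test of HC11-ΔSAP minus HC11-mutB1 gave -2.29 for Col11a1 (limma, adjusted p = 1.4e-07) and -2.15 for Col17a1 (limma, adjusted p = 1.3e-07) on the log2 scale, with all 3 HC11-ΔSAP arrays below all 3 HC11-mutB1 arrays. Since both genes were picked for their opposite directions, the sign of this difference was set by the choice and adds no separate support. The identical HC11-FL values of both genes also enter the spread used in this test.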

How the results depend on the processing

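The log2 fold changes of the 6 genes at 2-fold or more kept their direction under every alternative tried for them, and of these genes Col9a3 alone lost calls. In the fits without 1 array, 0 of the 31 called differences of collagen genes changed sign in any fit, whereas 40 of the 92 that were not called did so in at least 1, among them those of Col1a2 and Col3a1 against HC11-FL. Of the collagen genes called, 9 of 10 (HC11-ΔSAP against HC11-FL), 10 of 12 (HC11-mutB1 against HC11-FL) and 6 of 9 (HC11-ΔSAP against HC11-mutB1) were called in all 9 fits without 1 array. In those fits the last comparison had 6 to 8 lower and 0 higher, so that the single higher call, Col18a1, did not hold. It was 0 too when only the strains compared were fitted, when arrays were centred again on their medians and with the replicate block, and 2 at an adjusted p of at most 0.05. That threshold gave 5 lower genes in place of 3 for HC11-ΔSAP against HC11-FL. With collagen genes that repeat a value within a strain left out, an alternative chosen after seeing the data, HC11-ΔSAP against HC11-FL had 1 lower, also at 2-fold, HC11-mutB1 against HC11-FL had 2 higher at 2-fold, and HC11-ΔSAP against HC11-mutB1 had 3 lower, 2 of them at 2-fold. Fewer genes are counted there, since Col5a1, Col7a1, Col9a3, Col11a1 and Col17a1 drop out of those called. The 4 genes higher at 2-fold in HC11-mutB1 cells were 3, without Col9a3, when the arrays were quantile normalised again or only 2 strains were fitted. With the replicate number as a block, the counts of lower and higher genes were 3 and 6 (HC11-ΔSAP against HC11-FL, without Col8a1), 0 and 12 (HC11-mutB1 against HC11-FL) and 8 and 0 (HC11-ΔSAP against HC11-mutB1, without Col18a1). Deviations of same-numbered arrays correlated at r = -0.107 to 0.257 over 9 pairs, and those of differently numbered arrays at r = -0.261 to 0.23 over 18 pairs. These ranges overlapped, and the numbers were not taken to pair the arrays. The pairs of arrays numbered 1 were all positive (0.119, 0.257 and 0.108). RMA values narrow differences of dim probesets, which limits what can be said of the 24 genes with a mean of 4 to under 6.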

Other observations

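Col6a5 and Col6a6 each had a second probeset, with means of 3.13 and 3.50 over the 9 arrays, under the minimum of 4, against 4.68 and 5.88 for those used. Neither second probeset was called (limma, adjusted p of 0.32 or more for Col6a5 against HC11-FL and 0.18 or more for Col6a6).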
